A study of Homo sapiens with 20 samples.

Results

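The DKK1 domain is the 1.5 Mb of chromosome 10 from 53.5 to 55 Mb (hg19) that holds DKK1, at chr10:54074041-54077417. Its members are the H3K27ac peaks that overlap this window: 219 of the 458811 peaks in the lists of 4 libraries, 107 and 89 in GFP replicates 1 and 2 and 16 and 7 in SMARCB1 replicates 1 and 2. The window was chosen by its H3K27ac peaks, a block in the GFP libraries that the SMARCB1 libraries lack, so the contrast between the groups is given as a description and was not tested. All samples come from G401, a human rhabdoid tumour cell line whose labels give the genotype SMARCB1(-/-), and in all of them doxycycline induced a gene. In the control group that gene was GFP, and in the other group it was SMARCB1, which restores the missing subunit. The series holds 20 samples in 10 groups of 2. The 4 H3K27ac libraries, 2 per group, were used, and the H3K4me3, H3K4me1, SMARCA4 and input samples were not analysed here, so which of those marks stay with SMARCB1 is not described. The labels do not say whether the 2 samples of a group came from separate cultures, and both groups rest on 1 cell line.

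DKK1 is a secreted inhibitor of canonical Wnt signalling. It binds the co-receptors LRP5 and LRP6 at the cell surface and, together with KREMEN proteins, keeps Wnt ligands from assembling an active receptor complex. H3K27ac, acetylation of lysine 27 of histone H3, marks active promoters and enhancers, and long runs of it away from genes often mark clustered enhancers. SMARCB1 is a core subunit of SWI/SNF, a family of chromatin remodelling complexes that move nucleosomes at such elements. In the RefSeq gene order, CSTF2T is the protein-coding gene before DKK1, and MBL2, which encodes a mannose-binding lectin, is the one after it. The protein-coding gene whose end is nearest before DKK1 is PRKG1, which encodes a cGMP-dependent protein kinase. PRKG1-AS1 is the gene next to DKK1 on the PRKG1 side. Between DKK1 and MBL2 the table lists 5 genes without a protein product, among them LNCAROD, a long non-coding RNA named as an activating regulator of DKK1.

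The peak lists carry no read totals, so depth was read from the background expected at a summit, in fragments. The genome-wide background was 1.82 and 3.74 fragments in GFP replicates 1 and 2 and 4.09 and 3.89 in SMARCB1 replicates 1 and 2. The values of SMARCB1 replicate 1 fitted a scale of 0.855, and its background before scaling was 4.78 fragments, the highest of the libraries. At the genome-wide background the weakest peaks called rested on 7 and 11 fragments in the GFP lists and on 13 and 11 in the SMARCB1 lists, counted before scaling. The SMARCB1 lists were also the longer, with 145533 and 135472 peaks against 98251 and 79555. Where a SMARCB1 list has no peak, the signal did not pass its caller, which is not the same as no acetylation. Fold enrichment below is the authors' deposited value, the summit over the local background with 1 added to each.

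H3K27ac peaks covered 158185 bp of the window in GFP replicate 1 and 155652 bp in GFP replicate 2. They covered 5961 bp in SMARCB1 replicate 1 and 1766 bp in SMARCB1 replicate 2. Both GFP libraries are thus far above both SMARCB1 libraries, with no overlap between the groups, the contrast for which the window was chosen. Both GFP libraries were likewise above both SMARCB1 libraries in 235 of 1614 tiles of the genome of this length (14.6%). As shares of the window these are 10.5% and 10.4% with GFP and 0.397% and 0.118% with SMARCB1. Over the whole genome the order of the groups was the opposite, at 2.92% and 2.70% with GFP and 4.0% and 3.31% with SMARCB1. The mean covered length came to 156918.5 ± 1791.1 bp in the GFP group and 3863.5 ± 2966.3 bp in the SMARCB1 group (SD, n = 2 each), a difference of 153 kb. The mean number of peaks came to 98.0 ± 12.7 in the GFP group and 11.5 ± 6.36 in the SMARCB1 group (SD, n = 2 each). The GFP peaks lay between -98.2 and 551 kb of the DKK1 start, on both sides of the gene, while every SMARCB1 peak of the window lay upstream of it.

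**Figure D1:**
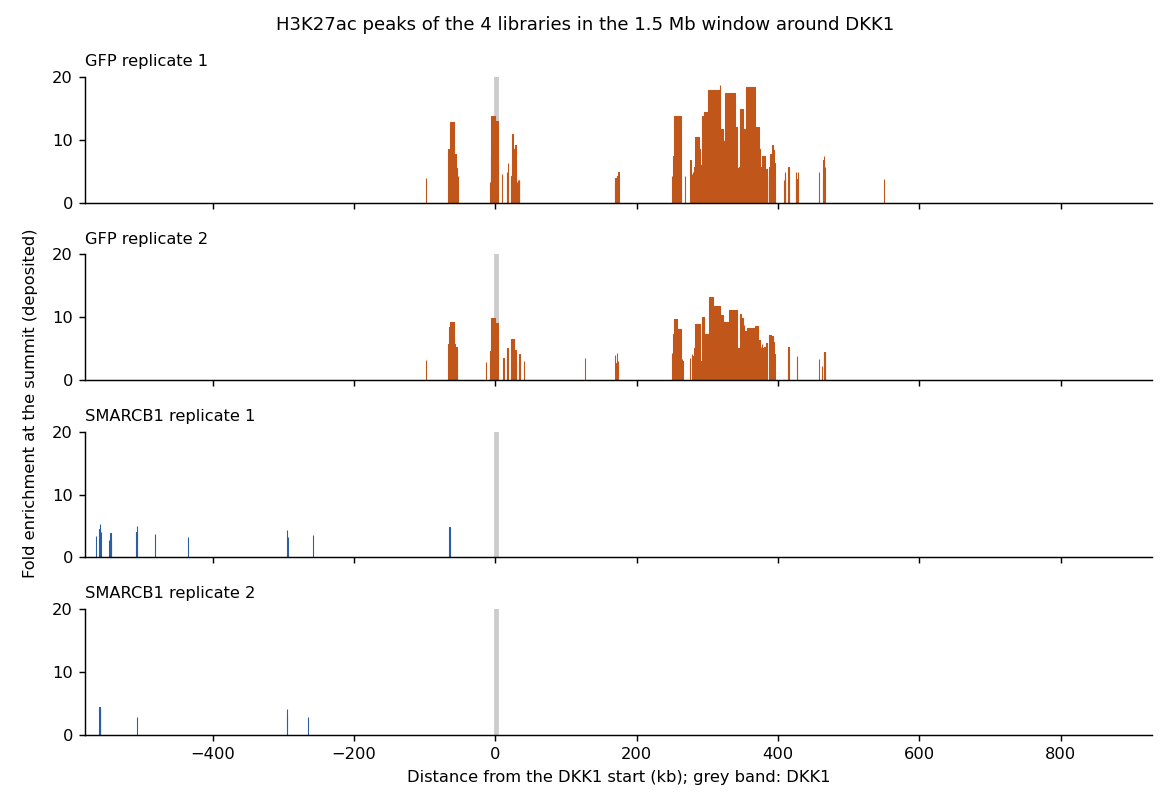
H3K27ac peaks of each library in the 1.5 Mb window, drawn from start to end against the distance from the DKK1 start in kb, with the deposited fold enrichment at the summit as height. GFP peaks run from -98.2 to 551 kb with the tallest, 18.8-fold in GFP replicate 1, in the downstream block, and no SMARCB1 peak lies beyond -63446 bp.

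At DKK1 itself both GFP libraries carried wide peaks on either side of the gene start, and neither SMARCB1 library carried any. The peak over the gene body ran from 54073980 to 54077710 in GFP replicate 1, where the summit held 40 fragments at an enrichment of 13-fold. In GFP replicate 2 it ran from 54074095 to 54078382, where it held 47 fragments at 9.13-fold. These peaks covered 100% and 98.4% of the 3377 bp of the gene. The summits lay 553 bp and 661 bp into DKK1, so the strongest acetylation of the gene body was in its first kilobase in both replicates. A peak of similar height lay upstream, from 54068198 to 54073837 in GFP replicate 1 (fold enrichment 13.8, 38 fragments) and from 54068248 to 54073864 in GFP replicate 2 (9.92, 46 fragments). Its summit stood at -5360 and -5418 bp from the gene start, at its far end, so the upstream acetylation was highest well away from the promoter. GFP replicate 1 had a further peak behind the gene, from 54077913 to 54078510 (fold enrichment 6.50), where the gene-body peak of GFP replicate 2 extended.

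The nearest SMARCB1 peak to DKK1 was 63.4 kb before the gene in replicate 1 and 264 kb before it in replicate 2. After the gene, the nearest was 1302.3 kb away in replicate 1 and 4042.2 kb away in replicate 2. In the GFP libraries the nearest peaks apart from those on the gene lay 203 and 176 bp before it in replicates 1 and 2.

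Between the upstream peak and the gene-body peak both GFP lists left a short gap at the promoter. It spanned positions -203 to -62 in GFP replicate 1 (142 bp) and -176 to 53 in GFP replicate 2 (230 bp), counting the first base of DKK1 as 0. Such gaps were not particular to the promoter. In the downstream block, a gap of similar size lay between peaks ending at 54391568 and starting at 54391791 in GFP replicate 1. Another lay between 54331394 and 54331642 in GFP replicate 2. The sequence before the gene start is shown because the gap at the promoter falls on it. It is the RefSeq sequence of the 250 bases before DKK1, plus strand, chr10:52314031-52314280 in GRCh38.p14, a build other than that of the peaks. Only distances from the gene start are set side by side, and DKK1 is 3377 bp long in both. Capitals mark matches to 3 of the motifs searched.

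DKK1 upstream: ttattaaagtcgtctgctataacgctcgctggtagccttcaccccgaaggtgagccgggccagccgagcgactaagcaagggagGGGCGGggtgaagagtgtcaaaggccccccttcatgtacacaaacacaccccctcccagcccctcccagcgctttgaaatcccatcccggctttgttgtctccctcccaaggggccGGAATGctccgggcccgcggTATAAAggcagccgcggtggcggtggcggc

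In all, 5 short motifs were searched on both strands of the 250 bases. GGGCGG, the GC box, stood at -166 to -161, within the gap of both GFP libraries. GGAATG, the core of the TEAD motif, stood at -50 to -45, and TATAAA, the TATA box, at -30 to -25. Both lie within the gap of GFP replicate 2 but under the start of the gene-body peak of GFP replicate 1. TGANTCA (AP-1) and CTTTGAT (TCF/LEF) had no match, which says only that these letters are not in this stretch. Among the same 250 bases of 35116 RefSeq promoters, GGGCGG was found in 42.6%, GGAATG in 11.9%, TATAAA in 10.7%, TGANTCA in 6.57% and CTTTGAT in 2.26%.

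**Figure D2:**
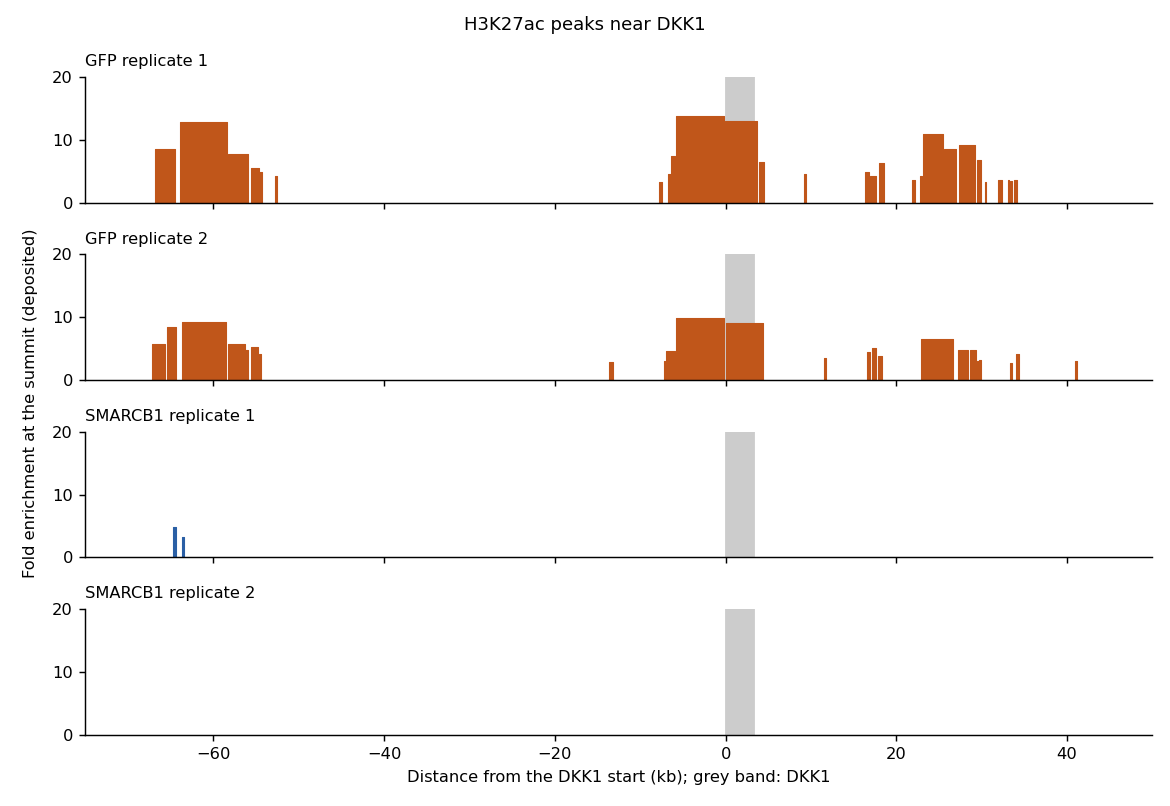
H3K27ac peaks near DKK1, against the distance from its start in kb (grey band: the gene), with the deposited fold enrichment as height. Both GFP libraries show peaks upstream, on and behind the gene, and the only SMARCB1 peaks are the 2 short ones of replicate 1 near -64 kb, at 4.90-fold and 3.22-fold.

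Joined within 12.5 kb, the stitching distance named in the headers of the authors' enhancer tables, the GFP peaks of the window formed 9 clusters. The cluster at DKK1 ran from -13.7 to 41.1 kb around the gene start, with 21 and 17 peaks covering 21.3 and 20.1 kb in GFP replicates 1 and 2. Besides the peaks at the gene, it held peaks between 16.4 and 34.3 kb, among which the region from 54096802 to 54101062 was the longest, at 4261 bp. No SMARCB1 peak fell in this cluster in either replicate.

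A cluster upstream of DKK1, from -67.2 to -52.6 kb, was the place where a trace of acetylation remained with SMARCB1. GFP replicates 1 and 2 covered 11.9 and 11.2 kb of it with 6 and 7 peaks, the strongest at 12.8-fold and 9.29-fold. SMARCB1 replicate 1 had 2 peaks there, from 54009242 to 54009596 (fold enrichment 4.90, 28 fragments) and from 54010311 to 54010595 (3.22, 18 fragments). Together they covered 0.640 kb, or 4.38% of the cluster, against 81.3% and 76.5% with GFP. SMARCB1 replicate 2 had no peak in it. The residual signal was therefore a feature of 1 library and of the side of the cluster away from DKK1.

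Most of the acetylated length lay far downstream, in a block from chr10:54323978 to 54469727, between 250 and 396 kb after the DKK1 start. Peaks covered 115 kb of its 146 kb in GFP replicate 1 (79.1%) and 118 kb in GFP replicate 2 (81.2%). This was 72.9% and 76.0% of all the sequence covered in the window in these libraries. The block held 55 and 50 peaks, the widest of 15821 bp and 11931 bp. Neither SMARCB1 library had a peak in it. Regions without a SMARCB1 peak were ranked by the lower of their 2 GFP fold enrichments, and the first 5 of the window all lay inside it.

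The first of these 5 regions, from 54370074 to 54392338, was 22.3 kb long and reached 18.8-fold in GFP replicate 1 and 13.2-fold in GFP replicate 2, with summits of up to 62 and 66 fragments. The second, from 54396462 to 54416626, was 20.2 kb long and reached 17.4 and 11.2. The next 2 were shorter, from 54420168 to 54425251 (14.9 and 10.5) and from 54392610 to 54396377 (11.7 and 10.3). The fifth lay at the near side of the others, from 54366881 to 54369729 (13.8 and 10.1). The 5 regions lay 293 to 351 kb beyond the DKK1 start, and each was higher in GFP replicate 1 by fold enrichment. This order takes the lower of the replicates. By GFP replicate 1 alone, the region from 54429286 to 54441061, 355 to 367 kb beyond the start and named after its values were seen, came next after the first at 18.4-fold, with 8.33-fold in GFP replicate 2. By length, the first 2 held ranks 2 and 3 among the 6624 such regions of the genome, after one of 23512 bp on chromosome 3.

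**Figure D3:**
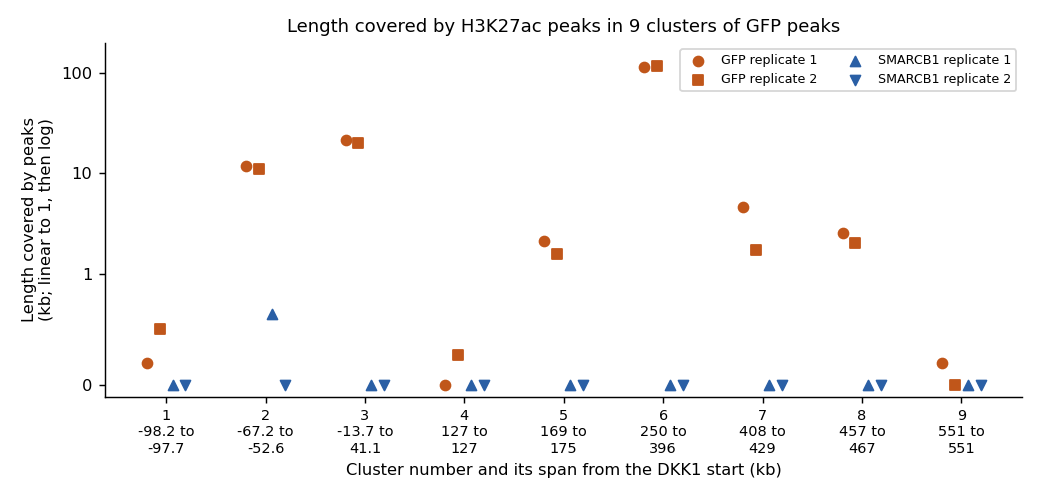
Length covered by H3K27ac peaks (kb, linear to 1 and logarithmic above) in each of the 9 clusters of GFP peaks, 1 point per library. Cluster 6, the block from 250 to 396 kb, holds 115 and 118 kb in the GFP libraries, and the SMARCB1 libraries are at 0 in every cluster except SMARCB1 replicate 1 in cluster 2.

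The other clusters were small. One at 169 to 175 kb covered 2.11 and 1.57 kb in GFP replicates 1 and 2, with a highest fold enrichment of 4.87 and 4.32. Behind the large block, a cluster at 408 to 429 kb covered 4.63 and 1.71 kb, and one at 457 to 467 kb covered 2.53 and 2.02 kb. The cluster at 408 to 429 kb is where the GFP replicates differed most in peak number, with 12 peaks in replicate 1 and 4 in replicate 2. A short peak at -98.2 kb was found in both GFP libraries, at 3.9-fold and 3.17-fold. Single peaks at 127 kb (GFP replicate 2, 3.59-fold) and 551 kb (GFP replicate 1, 3.72-fold) were found in 1 library each.

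The edges of the block differed between its sides. On the downstream side the last GFP peak of the window ended at 54624743 in replicate 1 and at 54540616 in replicate 2, and no library had a peak from there to the end of the window. The next peaks of any library were short ones at 55379553 in GFP replicate 1 (4.25-fold) and 55379709 in SMARCB1 replicate 1 (3.72-fold). The next peak began at 58120010 in GFP replicate 2 and at 58119568 in SMARCB1 replicate 2. The downstream edge thus borders a long interval without peaks in either group.

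On the upstream side the GFP libraries had no peak in the window before -98.2 kb, and the SMARCB1 libraries did. SMARCB1 replicate 1 had 14 peaks there and SMARCB1 replicate 2 had 7. This part was poor in peaks in both groups. From the window start to 54010595, peaks covered 1.17% and 0.346% in SMARCB1 replicates 1 and 2, against 4.0% and 3.31% over the genome. In GFP replicates 1 and 2 they covered 0.612% and 0.659% of it, all from -98.2 kb onward, past the part without GFP peaks. In 4 regions the SMARCB1 libraries both had a peak and neither GFP library did. They ran from 53513703 to 53514437 (fold enrichment 4.56 and 4.50 in SMARCB1 replicates 1 and 2), from 53514809 to 53515189 (5.40 and 3.89), from 53779189 to 53779976 (4.44 and 3.31) and from 53566535 to 53567416 (5.06 and 2.87). All 4 were under 1 kb long and weak beside the GFP block. The 4 make up 3.67% of the 109 regions of the window, where 17.5% of all regions of the genome were of this kind. They are all 4 of the regions that the SMARCB1 libraries shared (100%), where the genome-wide share was 44.5%. Of the 18 regions with a peak in any SMARCB1 library, 16 had no GFP peak (88.9%, against 65.0% over the genome). Without SMARCB1 replicate 1 there were 7 such regions, without SMARCB1 replicate 2 there were 14, and with only peaks of a -log10 q of at least 5, or with equal numbers of peaks, there were 2.

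The boundary of the window cuts through the SMARCB1 peaks upstream. Just outside it, the last peaks of SMARCB1 replicates 1 and 2 ended at 53499615 (3.55-fold) and 53496055 (2.61-fold). Just inside it, the first began at 53509102 (3.39-fold) and 53513759 (4.50-fold). The last GFP peaks before the window ended at 53460524 and 53460458, in the nearest region with a peak in all 4 libraries, from 53457014 to 53460524. Its highest fold enrichment was 17.7 and 11.6 in the GFP libraries and 12.6 and 11.5 in the SMARCB1 libraries. This region, at -614 kb from the DKK1 start, was singled out after its values were seen. The lowest of the 4 values there was above every SMARCB1 value in the window, the highest of which was 5.40.

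Merging all peaks that overlapped, from any library, gave 109 regions in the window. Of the 53 with a peak in both GFP libraries, 51 had none in either SMARCB1 library, which is 96.2%. Over the genome this held for 17.2% of the regions that the GFP libraries shared, and for 3.94% of all regions against 46.8% in the window. Of the 93 regions with a peak in any GFP library, 91 had no SMARCB1 peak (97.8%, against 38.6% over the genome). Since the window was chosen for this contrast, nothing is read from these shares. The 2 exceptions are the regions of the upstream cluster with a peak in SMARCB1 replicate 1. A further 40 regions had a peak in 1 GFP library only, 26 in replicate 1 and 14 in replicate 2. No region of the window had a peak in all 4 libraries, where 16.7% of the regions of the genome did. The 51 became 87 without GFP replicate 1 and 105 without GFP replicate 2, since a single library then defines them, and 15 when peaks within 1 kb were joined.

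The 51 regions had a median length of 1007 bp, against 522 bp for all such regions of the genome, and together covered 152 kb. Their highest fold enrichment ran from 3.01 to 18.8 in GFP replicate 1, with a median of 6.38, and from 2.78 to 13.2 in GFP replicate 2, with a median of 5.07. Replicate 1 was the higher in 43 of the 51. Over all peaks, the median fold enrichment was 4.60 in GFP replicate 1 and 3.99 in GFP replicate 2, so replicate 1 carried the higher values genome-wide too.

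The GFP peaks of the domain included more wide ones than the lists as a whole, but not consistently more with a fold enrichment of 10 or more. The window was chosen for a block of GFP peaks, so an excess of wide ones is in part built into that choice and was not tested. In GFP replicate 1, 9 of the 107 peaks were 5 kb or wider (8.41%), against 2.53% of all its peaks. In GFP replicate 2, 10 of 89 were (11.2%), against 3.22%. Peaks with a fold enrichment of 10 or more made up 15.9% of the window peaks and 15.4% of all peaks in replicate 1, and 6.74% and 10.3% in replicate 2. The median fold enrichment of the window peaks was 5.31 in replicate 1 and 4.65 in replicate 2. Over all peaks it was lower in both, at 4.60 and 3.99. This difference, too, may in part follow from the choice of the window and was not tested. The widest peak of the window held rank 239 of 98251 by width in replicate 1 and rank 502 of 79555 in replicate 2.

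The GFP replicates placed the block alike. Of the window peaks, 75.7% of those in replicate 1 and 84.3% of those in replicate 2 overlapped a peak of the other. Within the stretch from 54010596 to 55379708 they shared 139086 of 168418 covered bp, a Jaccard index of 0.826, against 0.677 over the genome. The stretch was picked for the sequence covered in both GFP libraries, so a high overlap is in part built into that choice. Nothing is read from the difference to the genome. The peaks without a partner were short and weak, with at most 713 bp and a fold enrichment of at most 6.82 in replicate 1, and at most 503 bp and 4.22 in replicate 2. They do not carry the block.

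The authors' deposited tables of stitched regions, whose headers name TSS-distal regions, give the downstream block as 1 region in each GFP table. It ran from 54324089 to 54469426 with 55 joined peaks in the table of GFP replicate 1 and from 54323978 to 54469727 with 50 in that of GFP replicate 2. The authors' deposited tables mark it as a super-enhancer in both, a mark that 3.37% and 3.35% of their regions carry. By summed peak length in the authors' deposited tables it held rank 37 of 26982 and rank 30 of 19377. The region at DKK1 was marked in the authors' deposited table of GFP replicate 2 and not in that of replicate 1, and in both it included the peaks at the gene start. No region of the authors' deposited SMARCB1 tables overlapped the block or DKK1. The table of SMARCB1 replicate 1 marked 1 region that reaches into the window, from 53476830 to 53530541, and the authors' deposited table of SMARCB1 replicate 2 marked none there.

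Between neighbouring SMARCB1 peaks, the stretch from 54010596 to 55379708, 1369.1 kb long, held 139 kb covered in both GFP libraries. Among the 34141 stretches of the genome that lie between SMARCB1 peaks and hold sequence covered in both GFP libraries, it ranked first by that length. The next 5 were on chromosome 8 from 132045654 to 132916333 (59.3 kb), chromosome 3 from 14366082 to 14434052 (55.7 kb), chromosome 8 from 682027 to 1684222 (52.8 kb), chromosome 8 from 20080880 to 20167851 (49.9 kb) and chromosome 2 from 160615127 to 161061217 (44.9 kb). A stretch ends at any SMARCB1 peak, so neighbouring stretches can be parts of 1 acetylated area. On chromosome 3, a stretch from 14241224 to 14365001 (44.6 kb) ended shortly before the one named. On chromosome 2, a stretch from 161066645 to 161113732 (37.5 kb) began shortly after the one named. How far the DKK1 stretch leads thus depends in part on where SMARCB1 peaks fall. The DKK1 stretch ranked first under every alternative run, with 134 to 161 kb covered, while the next stretch reached between 59.3 and 102 kb. The window was chosen for this contrast, and the stretch was picked for the length covered in both GFP libraries. Every run used these same libraries or some of them, so nothing is read from the rank. The length of the stretch rested on SMARCB1 replicate 1, as it was 4310 kb without that library. In the opposite direction, the stretch without GFP peaks that held the most sequence covered in both SMARCB1 libraries was on chromosome 3 from 172495069 to 174156942, with 153 kb. The DKK1 stretch is thus of the same order as the largest in the other direction.

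**Figure D4:**
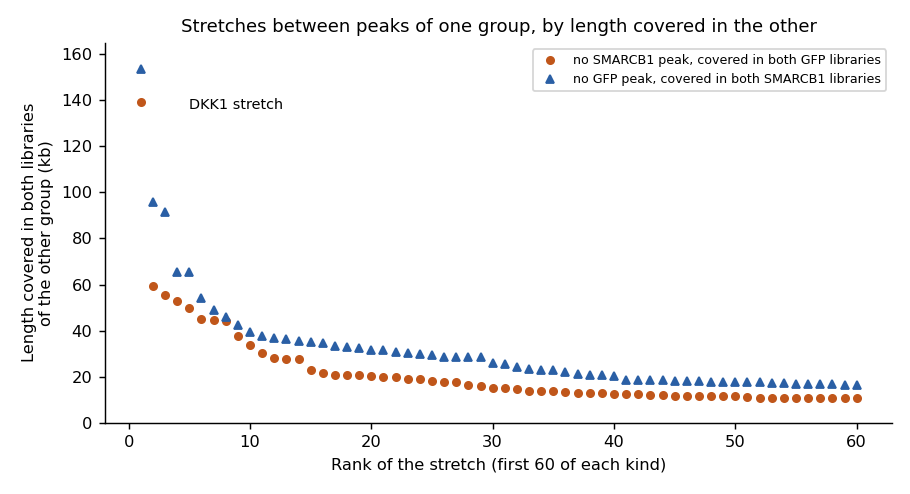
Length covered in both libraries of a group (kb) within stretches that hold no peak of the other group, by rank, for the first 60 stretches of each kind. The DKK1 stretch lies at 139 kb and the next GFP-only stretch at 59.3 kb, while the first SMARCB1-only stretch lies at 153 kb.

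Over 1614 tiles of 1.5 Mb laid on the same grid, both GFP libraries exceeded both SMARCB1 libraries in covered length in 14.6%. The DKK1 window held the largest mean difference of all tiles, 153 kb, followed by a tile on chromosome 14 with 119 kb. In that tile the SMARCB1 libraries still covered 205 and 155 kb against 317 and 281 kb with GFP, where in the DKK1 window they covered 5.96 and 1.77 kb. These ranks describe where the chosen window stands and were not tested.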

How the data were processed

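H3K27ac peak lists of 4 libraries were analysed, grouped by induced gene and ChIP antibody as the labels give them. Per the submitters' processing notes, BWA 0.7.12-r1039, SAMtools and bedtools were used with hg19. Peaks were called per library with MACS2, per the names in the deposited files. The caller's control and its filter are not given in the sources used here. The deposited fold enrichment is a ratio of summit to background, with a constant added to each. The -log10 values of p and q are the authors' too. The deposited score is 10 times the -log10 q. The deposited region signal was not used as a measurement, since regions with the same ID share it, per the file headers and values. A further 4 columns matched no sample by name. The stitched tables were assigned by name, and 100% of their bounds were in the peak list of that library.

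Fragments and background at each summit were solved from fold and -log10 p, within 0.001 up to a -log10 p of 10 and in proportion above it. All peaks were recovered (100%), with a scale of 0.855 on SMARCB1 replicate 1. Overlap was counted from 1 bp. The methods were tested on simulated data. No simulated summit held as few fragments as the weakest GFP peaks, so recovery at such peaks was not simulated. Members, lists and the naming rule (peaks within 5 kb of DKK1, the 5 strongest regions lost, up to 5 gained, edge peaks, the next 5 stretches) were chosen with earlier results of these data known. The clusters, widths and replicate overlap were chosen after the data had been seen. The planned list of Wnt pathway genes was not used, as no hg19 gene coordinates were used here. No test was made, because the window was chosen on this contrast, and 2 libraries against 2 cannot give an exact two-sided permutation p below 0.333. The software was Python 3.11.15 with scipy 1.17.1, pandas 2.3.3 and numpy 2.4.6, and figures were drawn with matplotlib 3.10.9.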

Additional observations from a re-analysis of the deposited data

How the results depend on the processing

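The GFP libraries exceeded the SMARCB1 libraries in covered length under every alternative run, and 25 of 44 values stayed close to the reported one. Close meant within 1 replicate SD for peaks, lengths and covered lengths, and within 1.5 times for counts of regions. With 2 libraries per group, leaving 1 out always moves the window's difference in peaks or covered length by less than this SD. For the stretch length the SD was 2079.5 kb, above the reported length of 1369.1 kb. The 25 values are therefore not read as a sign of stability. With a -log10 q of at least 5, the mean difference was 64 peaks and 146 kb, gained regions numbered 2, and the stretch was 4110 kb long with 134 kb covered. With peaks within 1 kb joined, the difference was 15.5 peaks and 171 kb, lost regions numbered 15 and the stretch held 161 kb, as joining makes fewer and longer peaks. Equal numbers of peaks and a reciprocal overlap of 50% each left 2 gained regions. Leaving out each library in turn gave 77.5 to 95.5 peaks, 151 to 155 kb, 51 to 105 lost and 4 to 14 gained regions, a stretch of 1369.1 to 4310 kb and 139 to 155 kb covered in it. No paired analysis was possible because no model was fitted in which a shared replicate number could enter as a block. The labels do not say that equal numbers pair the samples. By number, GFP exceeded SMARCB1 by 91 and 82 peaks and by 152 and 154 kb for numbers 1 and 2. Peak lists show only what passed the caller, at a lower depth in GFP replicate 1.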
